A study of Mus musculus with 21 samples.

Results

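H2Bub1, histone H2B with a single ubiquitin, was mapped by chromatin immunoprecipitation and sequencing (ChIP-seq) in mouse J1 embryonic stem (ES) cells after 4 days of differentiation and in undifferentiated ES cells. The members described here are the 5125 H2Bub1 domains of the differentiated list and the 2937 domains of the ES list, 8062 of the 42669 regions in the 8 lists of the series. Domains of the different lists counted as shared where they had 1 bp or more in common. Shared domains were sorted by how their length and number changed, so lost, kept, extended, fused and new domains could each be described.

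Differentiated cells gave 2 H2Bub1 samples, taken on day 4, and ES cells gave 3, out of 21 samples in all. Every group came from the J1 line, and the growth protocol describes ES culture on gelatin with serum and leukemia inhibitory factor. The labels do not say how differentiation was induced, and they name embryonic stem cells as the cell type of the differentiated samples too. The files hold no expression values, so the cell type could not be checked against marker genes. Each group's samples were combined by the authors into 1 list per condition. No domain has a value per replicate, and no test between the conditions was possible. Shares below carry exact 95% intervals (Clopper-Pearson) that cover counting error only.

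Further lists of the series were used as further measurements of the same places. H2Bub1 was also mapped in differentiated cells with Fbxl19 knocked down (2 samples, day 4), in ES cells with Fbxl19 knocked down (2 samples) and in an ES clone that strongly overexpresses tagged Fbxl19 (OE-high, 3 samples). Tagged Fbxl19 was pulled down on streptavidin in the OE-high clone and in a clone below the endogenous level (OE-low), with 2 samples each. Rnf20 was pulled down likewise in 1 sample of ES cells that contain the biotin ligase BirA, as do the OE-low cells. All Fbxl19 and Rnf20 peaks are therefore from undifferentiated cells, and none shows where these proteins were on day 4. Knockdown and overexpression levels were not analysed here.

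Rnf20 is the E3 ubiquitin ligase that places the single ubiquitin on H2B. H2Bub1 is laid down as RNA polymerase II transcribes, so it spreads over the bodies of active genes from near their starts. Fbxl19 is an F-box protein whose CXXC zinc finger binds unmethylated CpG, the state of most CpG islands at gene starts. The title of the series names recruitment of Rnf20 to CpG islands by Fbxl19 as its subject. The domains were listed on the mm9 build without gene names, so each is given by its position.

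The authors' lists differ in how many reads they may rest on. The track line of the differentiated list carries the number 36 with the suffix M and that of the ES list 60, and the headers do not say what is counted. Depth per sample is unknown. The domain score is the authors' own, has no stated formula and was at least 7.0 in both lists, with a median of 10.1 in the differentiated and 9.21 in the ES list. It was used to rank domains within a list and to cut lists to their top scores. Shared regions to be named were picked by the lowest score among their domains of both lists. Whether scores of different lists are on the same scale is unknown.

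Most of the H2Bub1 territory of day 4 lay outside the ES domains. Differentiated domains covered 117 Mb that no ES domain covered, which was 75.3% of their length. That length was 66.0 Mb between the top 50% of each list by score and 59.7 Mb with the differentiated list limited to the size of the ES list. Of this, 85.1 Mb lay in new domains, 29.8 Mb in stretches beyond the ends of ES domains and 2.16 Mb in gaps between ES domains that a differentiated domain bridged. Both lists covered 38.5 Mb, equal to 24.7% of the differentiated and 67.0% of the ES length. ES domains covered 18.9 Mb alone, with 9.52 Mb in lost domains and 9.39 Mb cut away from domains that were otherwise kept. The ES-only length was divided about evenly between whole domains and pieces of kept ones, whereas most of the differentiated-only length was in whole new domains. In such cell populations a mark present in more cells and a higher level per cell cannot be told apart.

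The classes differed in size as well as in number. New domains, those with no ES counterpart, numbered 3006, or 58.7% of the differentiated list (interval 57.3 to 60.0). Lost domains, the ES domains with no differentiated counterpart, numbered 738, or 25.1% of the ES list (interval 23.6 to 26.7). The lost share was 44.3% between the top 50% of each list and 45.3% with lists of equal size. Among shared places, 1665 were pairs of 1 differentiated and 1 ES domain. Of these pairs, 942 (56.6%) were extended, meaning at least 125% as long in the differentiated list as in the ES list, 565 were of similar size, and 158 were contracted to 80% or less. A further 170 differentiated domains were fused, each spanning at least 2 ES domains. In the reverse case, 111 ES domains were split over at least 2 differentiated ones, and 16 places joined several domains of both lists (complex).

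**Figure D1:**
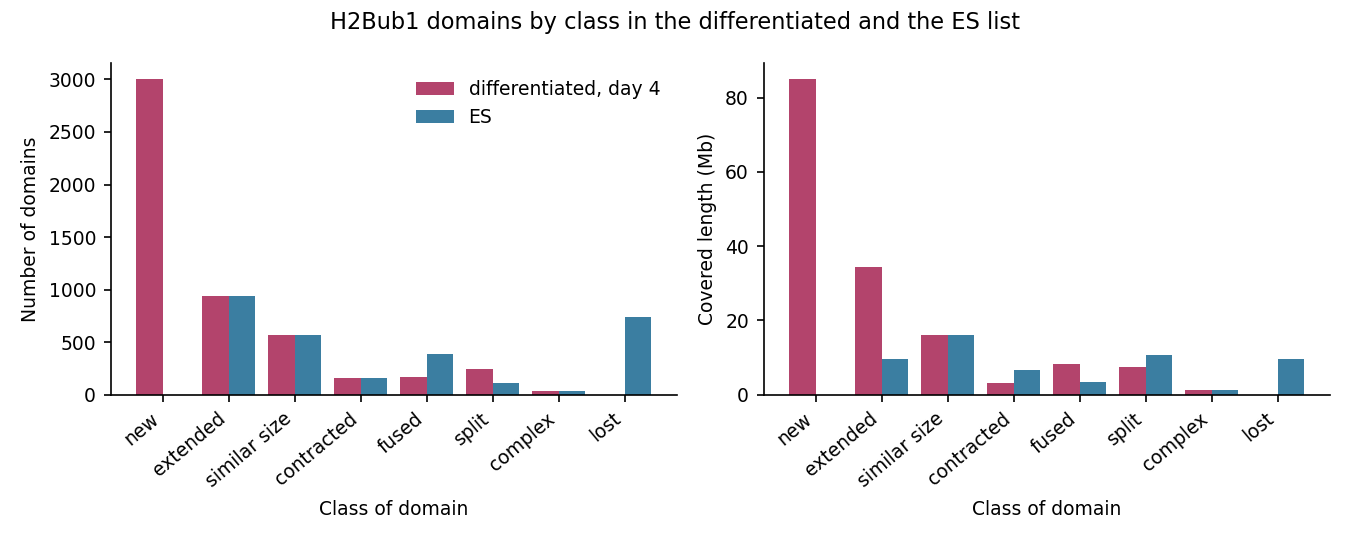
Number of H2Bub1 domains (left, bars from 0) and length covered in Mb (right) for each class, with the differentiated list in red and the ES list in blue. The 3006 new domains and their 85.1 Mb are the tallest bars, while the 738 lost domains cover 9.52 Mb.

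New domains were not edges of ES domains cut off by a narrow gap. The median distance to the nearest ES domain was 184 kb, and 82 of the 3006 new domains (2.73%) lay within 10 kb of one. Lost domains lay a median of 153 kb from the nearest differentiated domain, and 40 of 738 (5.42%) were within 10 kb. At the limit of 1 bp, the smallest overlap of a shared differentiated domain was 200 bp and the smallest gap of a new one 400 bp. Shared calls seldom rested on so little, since 31 of the 2119 shared differentiated domains overlapped the ES list by 1000 bp or less.

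New domains were shorter and lower in score than shared ones. Their median length was 17600 bp and their median score 9.37, against 23200 bp and 11.7 in the shared domains of the same list. Longer domains meet the ES list more readily at 1 bp, and the part of that rule in the length difference was not tested. The new share fell along the authors' score, where 74.6% of domains were new in the bottom one of 4 score classes (interval 72.2 to 77.0) and 35.1% in the top one (interval 32.5 to 37.8). Highest among new domains of at least 2 kb was chr17:3079200-3084799, with a score of 44.9, 2 OE-high Fbxl19 peaks, 1 OE-low Fbxl19 peak and 1 Rnf20 peak. Second came chr10:79224000-79229599, with a score of 34.2 and 1 OE-high Fbxl19 peak. It was also listed in the differentiated knockdown. The longest new domain, chr11:34934600-35320399, ran over 385800 bp with a score of 7.16, near the lower limit of the list. It held 4 OE-high Fbxl19 peaks and no Rnf20 peak, and it was the only one of these 3 with no counterpart in any of the other 3 H2Bub1 lists.

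Lost domains were short. Their median length was 4000 bp, against 9600 bp for the ES domains that were kept. Of the 111 ES domains under 1 kb, 67.6% were lost (interval 58.0 to 76.1), against 15.2% of the 745 ES domains of 20 kb or more (interval 12.7 to 17.9). By score the gradient was shallower, with losses of 31.0% at the bottom and 21.1% at the top of 4 score classes. A longer ES domain has more places where an overlap of 1 bp can make it kept. How much of the order by length follows from that rule was not tested. The highest-scoring lost domains of at least 2 kb were chr9:78325200-78329599 (score 36.7) and chr9:44142800-44146199 (score 33.5). Each held both Fbxl19 and Rnf20 peaks, and each was listed again in OE-high ES cells. The first was also listed in the differentiated knockdown, although it was missing from the differentiated list. At the other extreme, chr14:8074000-8326599 was lost over 252600 bp with a score of 7.85, and 2 domains of the OE-high list overlapped it.

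Extension was the commonest fate of a kept domain, and it was more frequent in short ES domains. The median extended pair measured 26500 bp in differentiated and 6800 bp in ES cells. Among pairs with an ES domain under 5 kb, 79.2% were extended (interval 75.0 to 83.0), with a median ratio of 3.55. Between 5 and 20 kb the share was 63.2%, with a median ratio of 1.65. Of pairs with an ES domain of 20 kb or more, 25.1% were extended (interval 21.2 to 29.2) and the median ratio was 1.00. Contracted pairs went with long ES domains, with a median of 13300 bp in differentiated and 27100 bp in ES cells, and 98 of the 158 had an ES domain of at least 20 kb. ES length enters both the ratio and this sorting, so the order across ES lengths is a description of the pairs only.

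**Figure D2:**
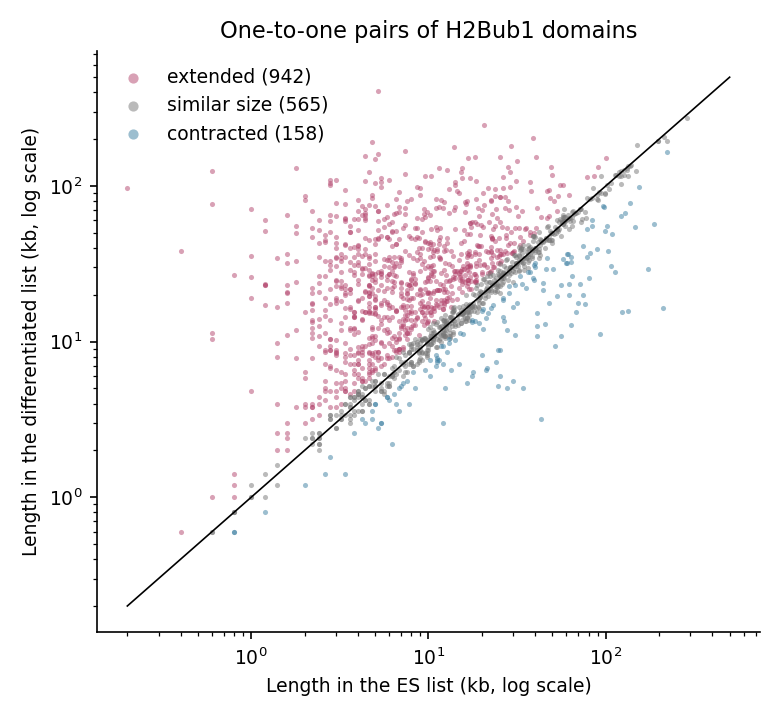
Length of each of the 1665 one-to-one pairs in the differentiated list (vertical, kb, log scale) and the ES list (horizontal, kb, log scale), with equal length as a line. Most pairs with an ES domain under 20 kb lie above the line, and of those with a longer ES domain 117 of 467 are extended and 98 contracted.

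Individual places show the range. The longest extended pair was also the one with the most added length. It ran over chr14:12386200-12796799, 410600 bp, in differentiated cells, against chr14:12386000-12391199, 5200 bp, in ES cells. Its left ends were 200 bp apart, and all of the growth was to the right. OE-high Fbxl19 and Rnf20 had 1 peak each there. The highest-scoring extended pair, chr1:31000000-31009399 in differentiated cells and chr1:31000400-31006599 in ES cells, was listed in all 5 H2Bub1 lists. The next, on chromosome 18, measured 8600 bp in differentiated and 4200 bp in ES cells with the same right end, and it held an Rnf20 peak but no Fbxl19 peak. The highest-scoring contracted pair of at least 2 kb was chr1:135028000-135037399 in differentiated cells, against chr1:135028000-135039799 in ES cells, with the same left end. The longest contracted domain measured 165200 bp in differentiated and 220800 bp in ES cells, within chr8:125404200-125629799. It was absent from the ES knockdown list, while the differentiated knockdown and OE-high lists each had 2 domains there. Among pairs of similar size the longest measured 272800 bp in differentiated and 289000 bp in ES cells, within chr13:44824200-45113199, with 5 OE-high Fbxl19 and 20 Rnf20 peaks.

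Some top-scoring places had the same ends in both lists, to the 200 bp steps on which ends fall. The region chr9:2999800-3038399 scored 226 in differentiated and 273 in ES cells, with no Fbxl19 or Rnf20 peak. The region chr17:39979800-39985999 scored 161 in differentiated and 300.4 in ES cells and held a peak of each of the 3 factor lists. The highest-scoring fused domain, chr2:98502200-98505599, had the same outer ends in both lists, scored 112 in differentiated and at least 101 in ES cells, and held no factor peak. These scores lie far above the list medians. The regions on chromosomes 9 and 2 were listed in the differentiated knockdown, but had no domain in the ES knockdown or the OE-high list. The region on chromosome 17 was in all of these lists. What sets these scores apart was not tested, and the input samples were not analysed at these places.

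Fusion mostly bridged small gaps. Of the 170 fused domains, 140 joined 2 ES domains, 16 joined 3, 11 joined 4, 2 joined 5 and 1 joined 7. Of them, 120 (70.6%, interval 63.1 to 77.3) lay on chromosomes 1, 4, 9, 11 and 14, a set chosen after the values were seen that held 47.0% of the ES domains, and without these chromosomes 50 remained. Between the top 50% of each list by score there were 25, and among domains of at least 2 kb 109. The 219 gaps closed had a median of 1800 bp and an upper quartile of 6300 bp, and 71 were 1000 bp or less. The longest gap closed was 99400 bp. Fusion went with growth at the outside too, since 94 fused domains (55.3%) were at least 125% as long as the whole span of their ES domains. The median fused domain was 37300 bp, against 4600 bp for the ES domains joined. Fused domains must by definition reach at least 2 ES domains, and how much of this difference follows from that was not tested. The domain that joined 7 ran over chr1:162836600-162902199 in differentiated cells, and its ES parts spanned chr1:162836200-162890399. A single OE-high Fbxl19 peak and no peak of Rnf20 lay in it. The longest fused domain, chr1:91351400-91621199, measured 269800 bp, and its 4 ES domains spanned 79.6 kb.

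Splitting opened wider gaps than fusion closed. The 137 gaps opened in the 111 split ES domains had a median of 12600 bp and a longest value of 164000 bp. Split ES domains were the longest class, with a median of 83800 bp, and their differentiated parts had a median of 20000 bp. A split ES domain must by definition reach at least 2 differentiated domains and the gap between them. How much of these lengths follows from that was not tested. In 91 of the 111 the parts numbered 2, in 14 they numbered 3 and in 6 they numbered 4. The longest was also the longest domain of the ES list, chr17:6219200-6674199, over 455000 bp with 14 OE-high Fbxl19 and 5 Rnf20 peaks. In differentiated cells it was represented by 2 domains of 129000 bp in all, and it had no domain in either knockdown list and 5 in the OE-high list.

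Growth on 1 side only was the commonest pattern among the pairs. In 728 of the 1665 pairs (43.7%), 1 end stayed within 1 kb of its ES position (held) and the other lay at least 2 kb outside it (moved out). Only 158 pairs (9.49%) had both ends moved out, 316 (19.0%) had both ends held, and 142 (8.53%) had 1 end held and the other at least 2 kb inside its ES position. The held end was the left in 357 and the right in 371 of the 728 pairs, so growth to the right and to the left was about equally frequent. The moved end lay a median of 12.9 kb out, with quartiles of 6.0 and 28.6 kb and a largest value of 406 kb.

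Fbxl19 summits lay at the end that stayed in place. Among the 728 pairs with 1 end held and the other moved out, an OE-high Fbxl19 summit lay within 1 kb of the held end in 495 (68.0%, interval 64.5 to 71.4). At the moved end it did so in 39 pairs (5.36%, interval 3.84 to 7.25) for the ES position and in 28 (3.85%, interval 2.57 to 5.51) for the differentiated position. At the ES positions, a summit lay at the held end alone in 484 pairs, at the moved end alone in 28 and at both in 11. Held and moved ends differed by 62.6 percentage points at the ES positions. They are ends of the same domains, so the shares are paired, and the separate intervals do not measure their difference. Fbxl19 was not used to choose the pairs, but the pairs are parts of the same 2 lists and not replicates.

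Rnf20 and the OE-low clone gave the same order at lower levels. A midpoint of an Rnf20 peak lay within 1 kb of the held end in 208 pairs (28.6%, interval 25.3 to 32.0), of the moved end's ES position in 24 (3.30%) and of its differentiated position in 10 (1.37%). OE-low Fbxl19 summits did so at 72 held ends (9.89%, interval 7.82 to 12.3), at 5 moved ends for the ES position (0.687%) and at 3 for the differentiated position (0.412%). Per kb, OE-high Fbxl19 summits reached 49.3 per 100 pairs in the first kb inside the held end and 19.9 in the first kb outside it. In the next kb inward the value was 4.26, and in the next kb outward 1.24.

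**Figure D3:**
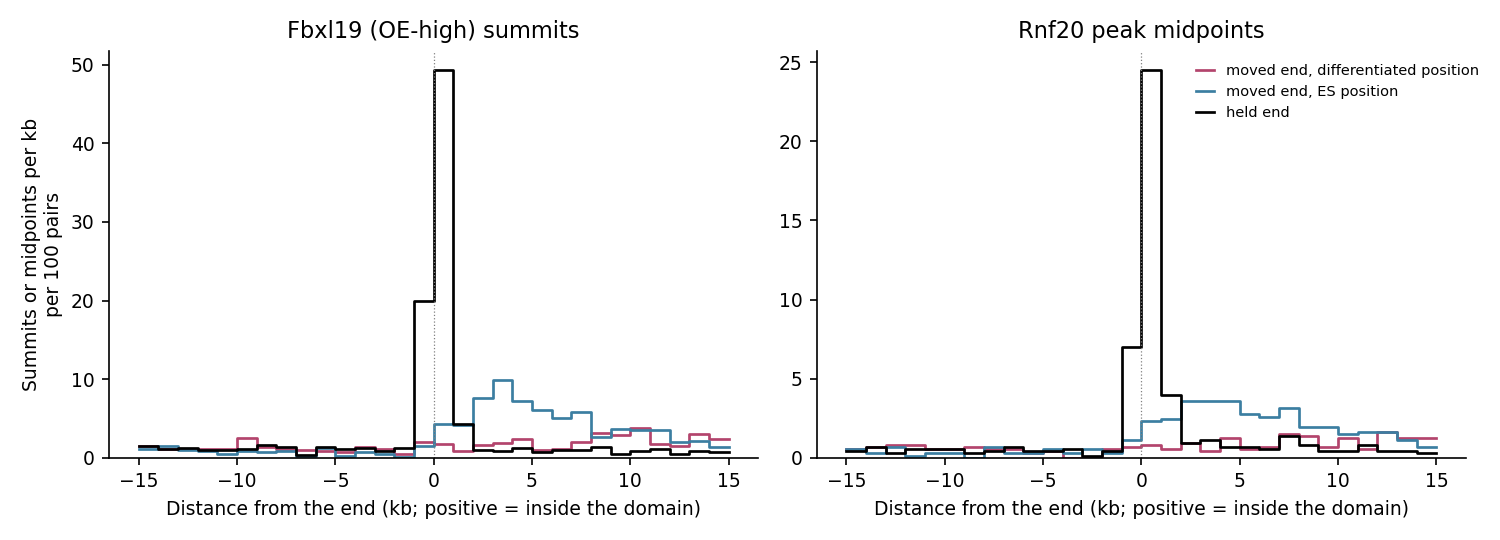
OE-high Fbxl19 summits (left) and Rnf20 peak midpoints (right) per kb per 100 pairs, by distance in kb from the end of the domain, for the 728 pairs with 1 end held and the other moved out. The held end (black) has a narrow peak of 49.3 for Fbxl19 and 24.5 for Rnf20 in the first kb inside, and the moved end has no such peak at its differentiated (red) or its ES (blue) position.

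The order held in each subset that was looked at. With the left end held, 66.4% of held and 5.04% of moved ends had an Fbxl19 summit, and with the right end held 69.5% and 5.66%. For ES domains under 5 kb the shares were 72.5% at held and 4.37% at moved ends, for 5 to 20 kb 65.5% and 3.80%, and for 20 kb or more 67.2% and 11.5%. On the 17 chromosomes with at least 20 such pairs, the lowest share at held ends was 53.8% and the highest at moved ends 10.3%.

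Held ends carried Fbxl19 more often than moved ends also where the other end moved in, but not every held end carried it. In the 142 pairs whose other end lay at least 2 kb inside its ES position, 66.2% of held ends had a summit (interval 57.8 to 73.9), against 9.86% of the moved ends at the ES position. The differentiated position of these retracted ends had a summit in 13.4% (interval 8.25 to 20.1). Where both ends were held, 63.6% of the 316 pairs had a summit at 1 end only and 7.28% at both. Most of these pairs thus had a held end without a summit. Where both ends moved out, 51.9% of the 158 pairs (interval 43.8 to 59.9) had a summit at 1 end of the ES domain only. In those pairs the summit lay at an end that moved. A domain with Fbxl19 at a single end was thus the most frequent case in each group of pairs described here. Where both ends moved out, the interval of that share reached below a majority. Among pairs that grew on 1 side, that end was mostly the one in place.

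The stretches added on day 4 were also H2Bub1 domains in OE-high ES cells, and seldom in knockdown cells. The 728 added stretches came to 16.6 Mb. The OE-high list covered 91.4% of this length, the ES knockdown list 7.54% and the differentiated knockdown list 2.89%. Of the 9.25 Mb that the same pairs shared between both lists, OE-high covered 99.2%, the ES knockdown 56.6% and the differentiated knockdown 31.5%. In differentiated knockdown cells the shared core of these domains was listed far more often than the added part. By choice the stretches lay outside the ES list and the shared parts inside it. The shared parts were thus listed in both conditions and the stretches in differentiated cells only. How much of the difference in either knockdown list follows from that choice was not tested. The lists also differ in size, with 246 Mb in OE-high, 41.9 Mb in the ES knockdown and 15.6 Mb in the differentiated knockdown. The stretches given up by retracting ends, 1.90 Mb in all, were covered to 52.6% in OE-high, 51.4% in the ES knockdown and 9.78% in the differentiated knockdown.

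The ends of the domains in the other lists were compared pair by pair. The differentiated knockdown list had a domain at 245 of the 728 pairs. There the held end was within 1 kb of its ES place in 86.5% (interval 81.6 to 90.5). The moved end was within 1 kb of its ES position in 43.7% (interval 37.4 to 50.1), inside it in 29.0%, between both positions in 23.7% and at its differentiated position in 3.67% (interval 1.69 to 6.86). In the ES knockdown, with 391 pairs, the held end was in place in 88.5%, and the moved end was at its ES position in 46.8% and inside it in 14.1%. It lay between both positions in 24.6%, at its differentiated position in 8.44% and beyond that in 6.14%. In OE-high cells, with 723 pairs, the held end was in place in 83.4%. Their moved end was at the differentiated position in 39.4% (interval 35.8 to 43.1), beyond it in 40.8%, between both positions in 15.9% and at the ES position in 3.46%. The pairs were chosen for a difference between differentiated and ES ends, and the other 3 lists were not used in that choice. The ES knockdown and OE-high lists are nonetheless of ES cells, like the list that set the ES ends.

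New domains differed from shared ones in the same direction. Of the 3006 new domains, 215 (7.15%, interval 6.26 to 8.13) overlapped a domain of the differentiated knockdown, against 35.5% of the 2119 shared differentiated domains (interval 33.5 to 37.6). These shares of new and shared domains were 18.5% and 54.7% between the top 50% of each list by score, 11.7% and 42.5% with lists of equal size, and 2.89% and 17.8% where 50% of the domain had to be covered. In the ES knockdown 6.22% of new and 60.6% of shared domains were listed. New domains are by definition absent from the ES list and shared ones present in it. How much of the difference in either knockdown list follows from that rule was not tested. In OE-high ES cells 91.2% of new (interval 90.1 to 92.2) and 98.4% of shared domains were. The most frequent combination among new domains, 2399 of them or 79.8%, was presence in OE-high cells and absence from both knockdown lists. It was found in 30.9% of shared domains (interval 28.9 to 32.9) and in 59.6% of all differentiated domains. Absence from both knockdown lists enters this combination, so the same limit holds for it. A further 246 new domains (8.18%) were in none of the 3 lists. At least 98.4% of shared and 94.2% of all differentiated domains were in 1 or more of them, since these shares were in the OE-high list. Another 165 new domains (5.49%) were in the OE-high and differentiated knockdown lists only, a combination that was not counted in shared domains.

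**Figure D4:**
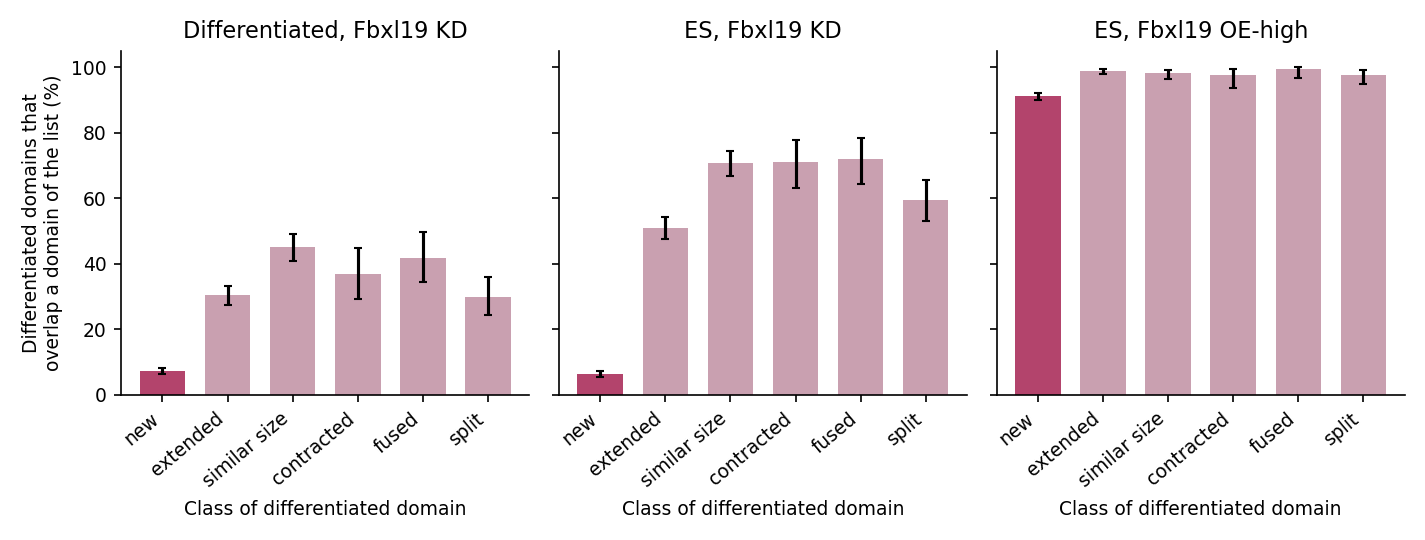
Share of the differentiated H2Bub1 domains of each class (%, bars from 0, with exact 95% intervals) that overlap a domain of the differentiated Fbxl19 knockdown, the ES Fbxl19 knockdown and the OE-high ES list. New domains (dark) stand at 7.15%, 6.22% and 91.2%, below each other class in all 3 lists.

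The gap in the knockdown lists was present among short and long domains. Among domains of 20 kb or more, 10.3% of new and 37.8% of shared domains were in the differentiated knockdown list, and under 5 kb the shares were 1.73% and 32.9%. In the ES knockdown they were 6.96% and 60.1% at 20 kb or more and 3.70% and 53.9% under 5 kb. Score differed too, with medians of 9.37 in new and 11.7 in shared domains, and its part in the gap was not tested. The lists differ widely in size, since OE-high covers 246 Mb, the ES knockdown 41.9 Mb and the differentiated knockdown 15.6 Mb. How often domains placed elsewhere would meet each list was not measured here.

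Shared classes differed among themselves. In the differentiated knockdown list, 45.0% of domains of similar size (interval 40.8 to 49.2) and 41.8% of fused domains (interval 34.3 to 49.6) had a counterpart. The share was 36.7% in contracted (interval 29.2 to 44.7), 30.6% in complex (interval 16.3 to 48.1), 30.3% in extended (interval 27.3 to 33.3) and 29.8% in split domains (interval 24.2 to 36.0), so extended domains were not set apart from these 3 classes. In the ES knockdown list it was 71.8% in fused, 70.9% in contracted, 70.6% in similar-size, 69.4% in complex, 59.3% in split (interval 52.9 to 65.4) and 50.8% in extended domains (interval 47.6 to 54.1). Extended domains thus lay between new domains and those of similar size in both knockdown lists.

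Lost domains were partly listed in other ES cells. Of the 738, 62.6% (interval 59.0 to 66.1) were in the OE-high list and 30.8% (interval 27.4 to 34.2) in the ES knockdown list, against 98.5% and 59.3% of kept ES domains. In the differentiated knockdown list 6.64% of lost and 35.2% of kept ES domains were found. Lost domains are by definition absent from the differentiated list, and how much of this difference follows from that was not tested. None of these 3 lists held 201 of the lost domains (27.2%), whose median length was 2400 bp. At least 98.5% of kept and 89.5% of all ES domains were in 1 or more of the 3 lists, since these shares were in the OE-high list.

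Peaks of Fbxl19 and Rnf20 were ranked differently by class. OE-high Fbxl19 peaks lay in 66.6% of new and 80.5% of shared differentiated domains, and in 37.8% of lost and 72.7% of kept ES domains. Rnf20 peaks lay in 25.1% of new (interval 23.6 to 26.7) and 41.9% of shared differentiated domains (interval 39.8 to 44.0). In lost ES domains the Rnf20 share was 37.9% (interval 34.4 to 41.6), close to the 39.1% of kept ones (interval 37.1 to 41.2). The difference of -1.17 percentage points was within counting error, whereas for Fbxl19 lost minus kept was -34.9 points. Lost domains were shorter than kept ones, so both differences mix length with class. For Rnf20 the value over all lengths joins opposite orders in short and long domains, given next.

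Short lost domains were set apart by Rnf20. Under 5 kb, 38.1% of lost domains (interval 33.5 to 42.9) and 25.3% of kept domains (interval 22.0 to 28.9) held an Rnf20 peak, while 26.4% of lost and 53.0% of kept ones held Fbxl19. At 20 kb or more the order for Rnf20 was the other way, with 46.9% of lost (interval 37.5 to 56.5) and 57.9% of kept domains (interval 54.0 to 61.8), and the intervals overlapped. Lost domains had 62.7 Rnf20 peaks per Mb and kept domains 34.2, against 42.0 and 52.0 for Fbxl19. The Rnf20 list is from a single library.

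Among the classes of differentiated domains, contracted ones had the most Rnf20. Of their differentiated members, 60.8% held an Rnf20 peak (interval 52.7 to 68.4), against 47.3% of those of similar size, 36.3% of extended and 25.1% of new domains. Per Mb there were 68.4 Rnf20 peaks in contracted, 30.0 in similar-size, 13.5 in extended and 12.2 in new domains. A longer domain with the same peaks has a lower density, so these values describe the domains as listed on day 4. The place of 1 contracted pair, chr8:19852800-20038799, held 46 Rnf20 peaks, and a split ES domain nearby, chr8:19679600-19803399, held 28. Leaving out chromosome 8, a choice made after seeing the data, gave 60.3% in contracted, 46.2% in similar-size, 35.5% in extended and 23.1% in new domains, and 37.4% in lost and 24.8% in kept ES domains under 5 kb.

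Within domains over 2 kb, Fbxl19 lay at an end more often than only inside. A summit was within 1 kb of 1 end in 52.0% of new domains, at both in 2.07%, inside only in 14.8% and at neither place in 31.2%. Shared differentiated domains gave 58.2%, 4.16%, 19.7% and 18.0%. Lost ES domains gave 31.6%, 0.935%, 15.9% and 51.6%. The windows at the ends reach 1 kb to either side, so short domains have little or no inside left. The order of end and inside thus follows in part from the definition. Lengths differ between the classes, and their part in these shares was not tested. New domains carried Fbxl19 at 1 end less often than shared ones, with intervals of 50.1 to 53.8 and 56.1 to 60.3. Lost domains had no summit at either place more often than new or shared ones, with an interval of 47.3 to 55.9.

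Seen from the peaks, 2236 of the 13669 OE-high Fbxl19 peaks (16.4%) lay in a domain of both lists, 2876 (21.0%) in a differentiated domain only, 655 (4.79%) in an ES domain only and 7902 (57.8%) in neither. Fbxl19 peaks differed by this in how often they overlapped Rnf20. The share was 36.5% in both (interval 34.5 to 38.6), 26.5% in differentiated only (interval 24.9 to 28.1), 39.2% in ES only (interval 35.5 to 43.1) and 15.6% in neither. Median Fbxl19 scores were nearly equal across the 4 groups, from 10.6 to 11.1. OE-low peaks gave the same order, with 55.8%, 42.1%, 56.7% and 23.7%. The intervals of the groups in both lists and in the ES list only overlapped for both clones.

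Chromosome X stood apart. It held 27 differentiated and 41 ES domains, the only chromosome with fewer domains on day 4. Of the 41 ES domains on X, 36 were lost (87.8%, interval 73.8 to 95.9), whereas on autosomes the lost share ranged from 12.8% to 45.1% with a median of 26.4%. Of the 27 differentiated domains on X, 22 were new (81.5%, interval 61.9 to 93.7), and the autosomes ranged from 37.8% to 73.3%. The 36 lost domains on X had a median length of 4500 bp, against 4000 bp for all lost domains, which include them. Fbxl19 peaks of the OE-high clone were in 4 of the 36 (11.1%, interval 3.11 to 26.1), against 37.8% of all lost domains. Other values were close to those of all lost domains or had intervals that held them. Rnf20 had a peak in 15 (41.7%, against 37.9%), 17 were in the OE-high list (47.2%, interval 30.4 to 64.5, against 62.6%), 10 in the ES knockdown (27.8%, against 30.8%) and 3 in the differentiated knockdown (8.33%, against 6.64%).

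The autosomes differed among themselves as well. The ratio of differentiated to ES domain number ranged from 1.21 on chromosome 1 to 2.98 on chromosome 7. Chromosomes 1, 4, 9, 11 and 14, a set chosen after the values were seen, held 34.0% of differentiated and 47.0% of ES domains. Their ratio was 1.26, against 2.21 on the other autosomes, and 43.0% of their differentiated domains were new (interval 40.7 to 45.4) against 66.6% (interval 65.0 to 68.2). These chromosomes held 35.7% of the OE-high Fbxl19 peaks and 26.2% of the Rnf20 peaks. What sets them apart was not tested. The extended share was 57.9% on these chromosomes and 55.3% on the others. Fbxl19 lay at 69.1% of held and 7.10% of moved ends on them, and at 67.2% and 3.97% on the others, so the pattern at the ends was present in both sets.

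**Figure D5:**
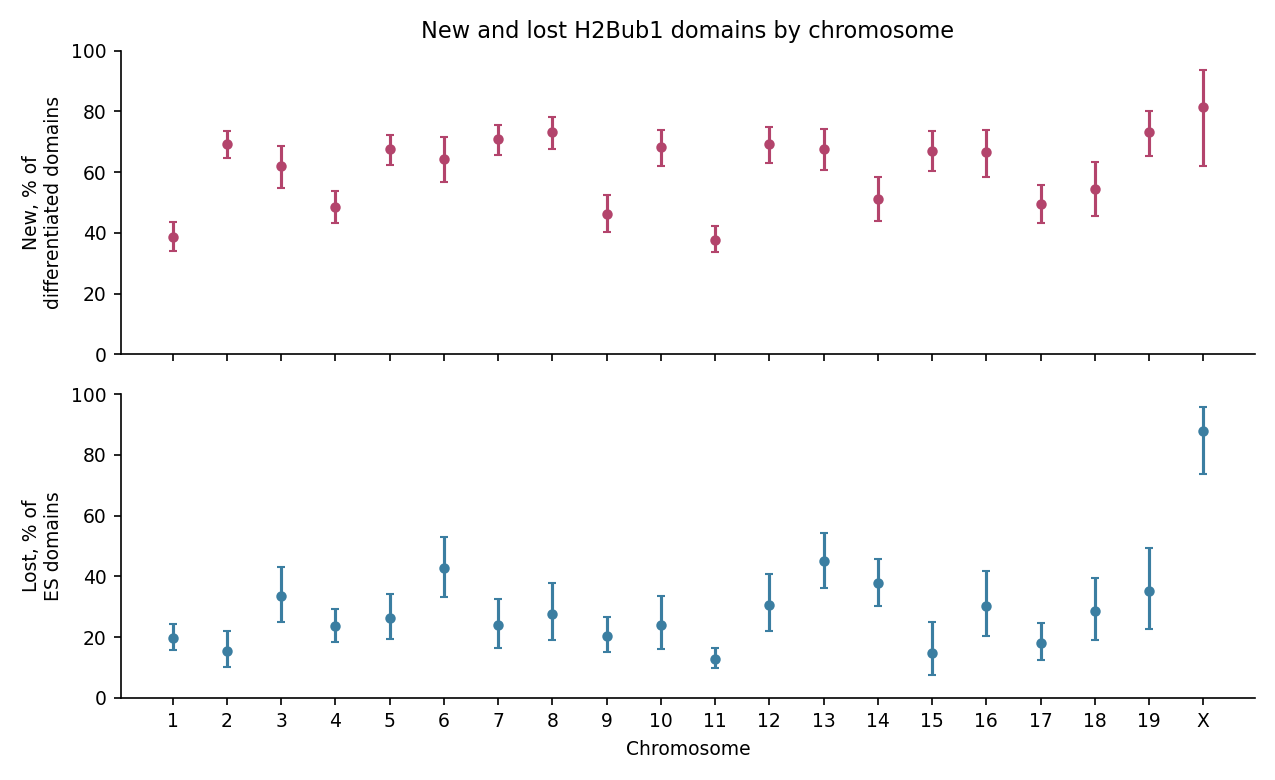
New domains as a share of the differentiated domains (upper, %) and lost domains as a share of the ES domains (lower, %) on each chromosome, with exact 95% intervals. Chromosome X has the highest lost share, 87.8%, and chromosomes 1 and 11 the lowest new shares, 38.7% and 37.8%.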

How the data were processed

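ChIP-seq libraries were mapped and peaks listed by the authors. Per the submitters' processing notes the tools were BWA 0.5.9-r16 and MACS, and the genome build was mm9. The H2Bub1 track lines end in BCP, a broad-domain caller, per the file headers. The authors' deposited score per domain or peak has no stated formula. It was used for ranking and cutting within a list and for picking the regions named. Another deposited column of the authors gives the length of each H2Bub1 domain, and the ends fall on steps of 200 bp. For the Fbxl19 lists the caller and its threshold, and for all samples the depth, are not given in the sources at hand.

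Groups came from sample titles. Whether the third OE-high H2Bub1 sample entered that list is unknown. Positions are 1-based on mm9. Start positions in the H2Bub1 and Rnf20 lists were taken to be 0-based and those of Fbxl19 1-based. Fbxl19 was placed by its listed summit and Rnf20 by the midpoint of its peak.

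Classes, ends and overlaps were computed with SciPy 1.17.1 and NumPy 2.4.6 under Python 3.11.15, and plotted with matplotlib 3.10.9. The class code was tested on simulated data, where 100% of 900 regions received their planted class. The regions named are, for each class, the 2 of at least 2 kb with the highest score (the lowest of the domains involved for shared classes) and the longest, plus the pair with the most added length and the domain joining the most ES domains. The members, classes and lists were chosen with earlier results of these data known. No mm9 sequence or gene annotation was used here, so domains were not assigned to genes. Input samples were not analysed here.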

Additional observations from a re-analysis of the deposited data

How the results depend on the processing

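Each of 14 values was recomputed under those of 14 alternatives that apply to it, giving 95 values, of which 58 stayed within their interval, or within 1.5 times for lengths, ratios and counts, and 37 moved. Leaving out chromosomes 1, 4, 9, 11 and 14, or chromosome 8 for the peaks by class, was chosen after seeing the data. With lists cut to their top 50% by score, the kept share of ES domains was 55.7%, the new share of differentiated domains 68.1%, the extended share of pairs 53.3%, fused domains 25 and the length gained outside ES domains 66.0 Mb. With the differentiated list limited to the size of the ES list these were 54.7%, 48.2%, 49.4%, 121 and 59.7 Mb. Limiting to domains of at least 2 kb gave 78.4% kept and 109 fused. Asking for 50% of the domain to be covered gave 71.3% kept and 73.6% new. Without those chromosomes 70.9% were kept, 66.7% were new and 50 were fused. Extension at a ratio of 1.5 or 2 gave 48.9% and 37.6%. The median length ratio stayed between 1.23 and 1.48.

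The held minus moved difference in Fbxl19 was 66.7 points in the top 50%, 53.4 within 500 bp and 9.20 with OE-low peaks, and for Rnf20 20.7 within 500 bp. Fbxl19 in new minus shared domains was -10.6 in the top 50%, -10.7 with equal sizes and -7.67 with OE-low peaks. In lost minus kept domains it was -19.5 in the top 50%, -19.5 with equal sizes, -30.3 at 2 kb or more and -8.01 with OE-low peaks. For Rnf20, new minus shared was -14.0 with equal sizes, and lost minus kept, within counting error throughout, was 0.622 in the top 50%. New and shared domains in the differentiated knockdown list were 18.5% and 54.7% in the top 50%, 11.7% and 42.5% with equal sizes and 2.89% and 17.8% with 50% covered. Shared domains were at 32.1% without those chromosomes. The causes were not tested. No difference whose interval left out 0 changed sign.

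No paired analysis was possible because each condition is 1 list of combined samples. For the same reason there was no fit without a replicate. Depth is unknown, and a domain under a list's threshold cannot be told apart from one without H2Bub1.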
